A study of Homo sapiens with 12 samples.

Results

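The metalloproteinase genes of the MMP, ADAM and ADAMTS families were followed across 4 lines of MIA PaCa-2, a human pancreatic ductal adenocarcinoma cell line of the mesenchymal, basal-like type. Members were chosen by symbol alone, as MMP, ADAM or ADAMTS followed by a number. The rule itself uses no measured value, but it was set with earlier results of these data known. The rule gave 65 of the 63086 genes in the table, of which 24 were MMP, 22 ADAM and 19 ADAMTS genes. The study asked which transcripts depend on TIMP1, which encodes tissue inhibitor of metalloproteinases 1 (TIMP-1). WT cells were the unedited parent line. CRISPR Control cells had been through CRISPR-Cas9 editing, a method that cuts DNA at a site set by a short guide RNA, and carried only a silent point mutation in TIMP1, so that the encoded protein was not altered. TIMP1 KO 1 and TIMP1 KO 2 were independent knockout lines with frame-shift mutations in exon 4. All cells were grown in the same medium without further treatment, and each line gave 3 libraries, named as biological replicates in the sample titles. Each edited genotype was represented by a single line, so that an effect of the edit cannot be told apart from other differences between the lines.

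Metalloproteinases of these families cut proteins with a zinc ion held in the active site. MMPs are secreted or tethered to the cell surface and digest collagens and other matrix proteins. ADAMs are mostly membrane proteins, and those with an intact catalytic site release growth factors, receptors and adhesion molecules from the cell surface, whereas ADAMTS proteins are secreted, bind to the matrix and process proteoglycans and procollagens. TIMP proteins sit in the active site and block it. TIMP-1 blocks most secreted MMPs and ADAM10, and is a weak inhibitor of several membrane-type MMPs. In pancreatic carcinoma, metalloproteinases are known for remodelling the dense collagen-rich stroma and for shedding ligands of the EGF receptor.

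Values were read counts per gene scaled to a common level between libraries, called normalised counts here. The libraries held from 26908701 to 36093563 reads in genes, and 1 read was worth from 0.828 to 1.19 normalised counts. TIMP1 RNA was 3837, 3290 and 3532 normalised counts in the WT libraries and 2285, 2826 and 2959 in CRISPR Control. It was 1562, 1624 and 1613 in TIMP1 KO 1 and 1136, 1192 and 1155 in TIMP1 KO 2. The deficient lines (KO 1 and KO 2) thus lay below the competent lines (WT and CRISPR Control) without overlap, and the transcript was still present in the KO lines. RNA levels do not show the frame shift itself. All 8 carcinoma line markers were detected, led by KRT8, KRT18 and VIM, and their summed level ran from 267100 to 287400 in WT, 108700 to 136600 in CRISPR Control cells, 309500 to 316600 in KO 1 and 251700 to 272000 in KO 2. Between the deficient and the competent lines, 6 of the 8 were called higher and 2 lower (32.9% and 33% of all genes), with a median log2 fold change of 0.45, and CDH1, the epithelial cadherin, was among the lower ones at -3.65. Leukocyte markers summed to between 38.2 and 172 in any library, almost all of it CD14, with PTPRC at no more than 9 reads. All 4 endothelial and 4 of the 5 fibroblast markers exceeded 3 reads in a library. Endothelial markers summed to between 35.2 and 249.9, and KDR made up most of the sum in WT, KO 1 and KO 2, at means of 127, 93.3 and 213, but was at 11.9 in CRISPR Control. Fibroblast markers summed to between 991 and 1096 in WT, 1842 and 2188 in CRISPR Control cells, 1037 and 1125 in KO 1, and 1940 and 2056 in KO 2. Most of this was THY1, with DCN at no more than 3 and LUM at no more than 6 reads in any library.

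Of the 65 genes, 33 had a mean of at least 10 normalised counts over the 12 libraries and were tested, 14 of them MMP, 10 ADAM and 9 ADAMTS genes. The other 32 fell under that minimum. A gene that is low in most lines passes such a minimum only through the line in which it is high, which applies to MMP10, MMP19, ADAMTS2, ADAMTS6 and ADAMTS16. Counts over the 33 genes are therefore given as descriptions. A gene is called here where the adjusted p (limma, Benjamini-Hochberg over all 15987 genes tested, two-sided) was under 0.05. Because all genes of a line share 3 libraries, p-values measure the spread between libraries of a line and not the spread between lines. This also holds where the deficient and the competent lines were compared as groups, so those p-values do not treat lines as the replicates.

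Levels of different genes were compared as normalised counts per kilobase of exon. MMP14, which encodes the membrane-anchored collagenase MT1-MMP, had the highest level of the 65 genes in all 4 lines. It stood at 617 ± 39.9 per kb (SD, n = 3) in WT, 957 ± 69.6 in CRISPR Control cells, 752 ± 14.1 in KO 1 and 618 ± 37.2 in KO 2. In WT it was followed by MMP17 at 405 ± 14.8 and ADAM15 at 309.6 ± 23.9 per kb, and then by ADAM10 at 258 ± 16.9, MMP15 at 230.1 ± 18.8 and ADAM9 at 202 ± 4.28. The 6 genes together made up 72.3% of the summed level of the 65. ADAM10 and MMP15 were neighbours whose libraries overlapped in WT, while the libraries of MMP14, MMP17 and ADAM15 did not overlap with one another. The order below MMP14 differed in the other lines. In KO 1 ADAM19 ranked directly below MMP14 at 340.5 ± 6.35 per kb, against 85.1 per kb in WT. In CRISPR Control MMP17 was followed by ADAM9 and MMP2, at 285 ± 20.3 and 265 ± 11.8 per kb, and in KO 2 ADAM9 and ADAMTS15, at 248 ± 14.9 and 202 ± 9.49, ranked above MMP15.

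Summed per family, MMP genes reached 1487 ± 79.4 per kb in WT (SD, n = 3), 2243 ± 236 in CRISPR Control cells, 1648 ± 58.8 in KO 1 and 1619 ± 116 in KO 2. ADAM genes summed to 1129 ± 22 per kb in WT and 1127 ± 56.2 in CRISPR Control, and to 1420 ± 6.8 in KO 1 and 1283 ± 30.8 in KO 2. ADAMTS genes were a smaller pool, with 179 ± 13 per kb in WT, 103.5 ± 9.37 in CRISPR Control cells, 112 ± 2.9 in KO 1 and 326 ± 22 in KO 2. Per kb, the ADAM sum was higher in every deficient library than in every competent library. The ADAMTS sum was highest in KO 2. Without division by exon length, normalised counts of the ADAM genes summed to 13205 ± 123 for WT and 13996 ± 697 for CRISPR Control. The sums were 15905 ± 178 for KO 1 and 14903 ± 613 for KO 2. On that scale libraries of CRISPR Control and KO 2 overlapped, so the separation of the ADAM sum held per kb only.

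**Figure D1:**
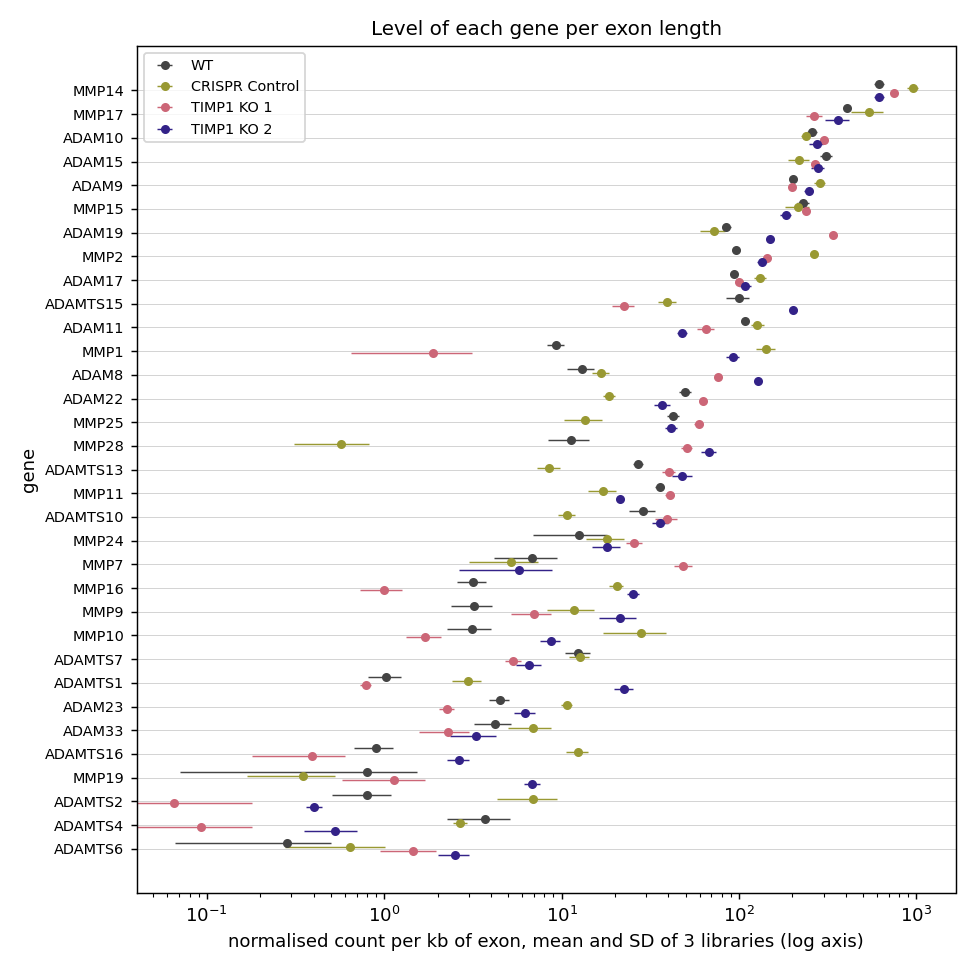
Levels of the 33 tested genes, ordered by their mean over the lines, as normalised counts per kilobase of exon on a log axis, with points for the mean and bars for the SD of 3 libraries in each line. MMP14 is the highest gene per kb in every line, and the lines lie far apart for MMP1, MMP28, MMP16, ADAMTS1 and ADAMTS2. Bars that would reach 0 or below are cut at the left edge.

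Against WT, 24 of the 33 genes were called in KO 1, where 35.5% of all genes tested were called. Of these 14 were higher and 10 lower (18% and 17.5% of all genes). In KO 2, 22 were called against 55% of all genes, 16 higher and 6 lower (27.1% and 27.9%). In CRISPR Control, 23 were called against 53.4% of all genes, 14 higher and 9 lower (27.2% and 26.3%). The median absolute log2 fold change of the 33 was 0.76 in KO 1, 0.78 in KO 2 and 0.93 in CRISPR Control, whereas over all genes it was 0.24, 0.37 and 0.35. The number for the line with the intact protein thus lay between those of the KO lines. The 3 comparisons share the WT libraries.

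Between KO 1 and CRISPR Control, 28 genes were called (63% of all genes), 11 higher and 17 lower in KO 1 (31.7% and 31.3%). Between KO 2 and CRISPR Control, 27 were called (67.7% of all genes), 14 higher and 13 lower in KO 2 (33.3% and 34.4%). Between the KO lines, 22 were called (38.2% of all genes), 14 higher and 8 lower in KO 2 (18.1% and 20.1%). All 33 genes were called in at least 1 of the 6 pairs of lines, as were 86.9% of all genes, and 27 of the 33 were called with an absolute log2 fold change of at least 1, as were 33.6% of all genes. ADAM8, ADAM19, ADAM22, ADAMTS15 and ADAMTS16 were called in all 6 pairs (6.37% of all genes). With an absolute log2 fold change of at least 1, 13 genes were called in KO 1 and 13 in KO 2 against WT (8.21% and 14.7% of all genes), and 16 in CRISPR Control (14.7%). Under the same condition 20 were called between KO 1 and CRISPR Control (21.2%), 16 between KO 2 and CRISPR Control (24.5%) and 13 between the KO lines (8.25%). The highest mean lay in CRISPR Control for 13 of the 33 genes, in KO 1 for 9, in KO 2 for 9 and in WT for 2. The lowest mean lay in KO 1 for 13, in CRISPR Control for 11, in WT for 7 and in KO 2 for 2. Such shares were not computed over all genes.

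**Figure D2:**
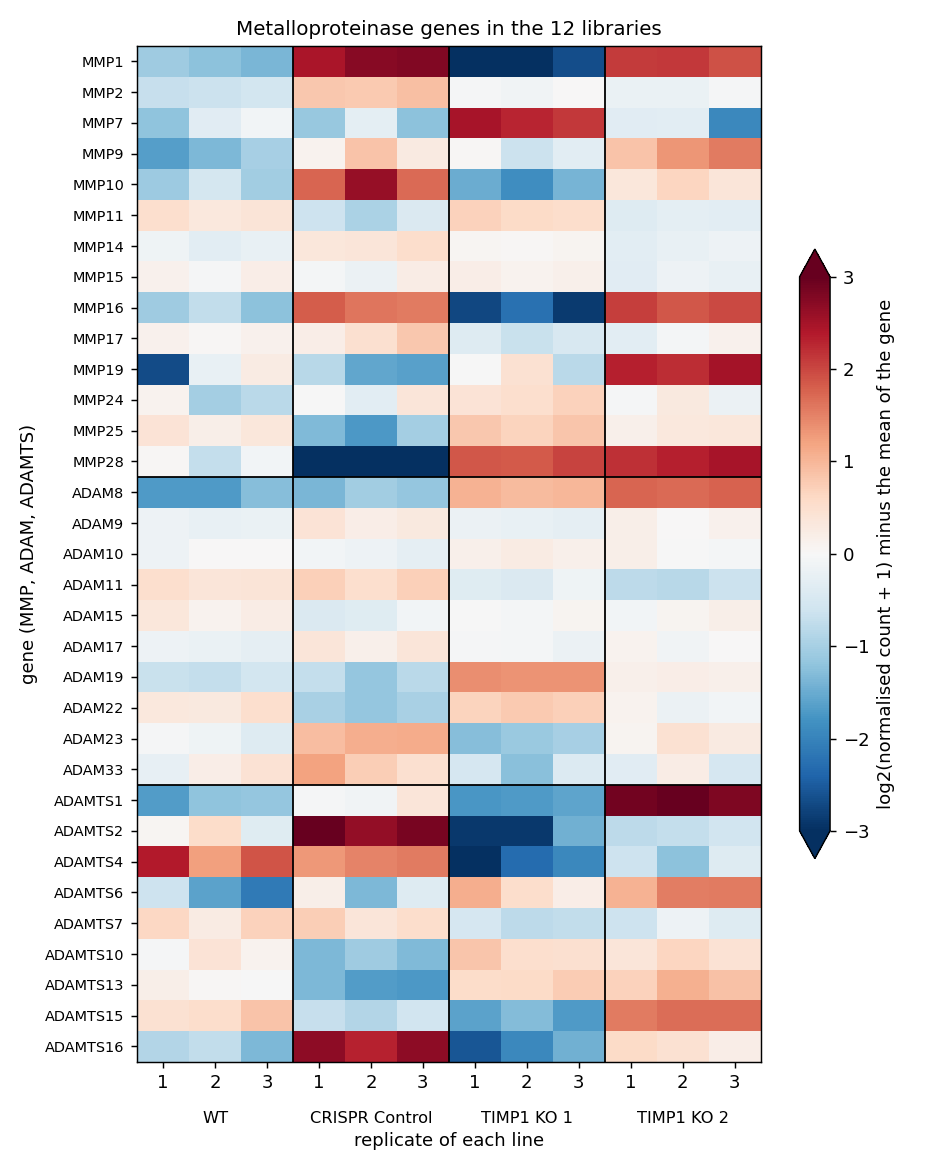
The 33 tested genes (rows, MMP, ADAM and ADAMTS genes from top to bottom) in the 12 libraries (columns, 3 replicates of each line), as log2(normalised count + 1) minus the mean of the gene, with colours ending at -3 and 3. Replicates of a line resemble each other, CRISPR Control and KO 2 are both high for MMP1 and MMP16, and MMP28 is lowest in CRISPR Control.

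Secreted MMPs were led by the gelatinase MMP2, which digests denatured collagen and basement membrane collagen. MMP2 stood at 435, 451 and 481 normalised counts in WT and at 1229, 1204 and 1309.9 in CRISPR Control. The KO 1 libraries held 682, 648 and 705, and the KO 2 libraries 613, 608 and 684. All edited libraries lay above WT, and CRISPR Control lay highest. Relative to WT, MMP2 changed on the log2 scale by 0.57 ± 0.09 in KO 1 (SE, adjusted p = 3.25e-05), by 0.48 ± 0.09 in KO 2 (adjusted p = 0.000106) and by 1.45 ± 0.09 in CRISPR Control (adjusted p = 6.14e-11). MMP9, the other gelatinase, was much lower and also differed from WT in all 3 lines. It was 7.49 ± 1.94 (SD, n = 3) in WT, 27.5 ± 8.12 in CRISPR Control cells, 16.3 ± 4.09 in KO 1 and 49.8 ± 11.7 in KO 2. The call for MMP9 in KO 1 (log2 fold change 1.02, adjusted p = 0.0175) was lost without WT replicate 1 (0.86, adjusted p = 0.0711) or KO 1 replicate 1 (0.85, adjusted p = 0.082).

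The tested members of the MMP gene cluster on chromosome 11, which encodes secreted MMPs, were MMP1, MMP10 and MMP7. MMP1 (chr11:102789401-102798160, minus strand, GRCh38) encodes interstitial collagenase, which cuts intact fibrillar collagen. Its WT libraries held 28.3, 25.5 and 22.9 normalised counts, against 336, 409 and 423 in CRISPR Control. KO 1 held 2.16, 4.5 and 8.83, and KO 2 held 262, 269 and 229. No libraries of any 2 lines overlapped, with KO 1 lowest, then WT, KO 2 and CRISPR Control. MMP1 thus fell in KO 1 by 2.25 ± 0.28 on the log2 scale (SE, adjusted p = 4.92e-06) and rose in KO 2 by 3.26 ± 0.28 (adjusted p = 1.63e-08) and in CRISPR Control by 3.88 ± 0.28 (adjusted p = 1.58e-09). Between the KO lines the log2 fold change was 5.51 ± 0.28 (adjusted p = 2.66e-11), the largest among the 33 genes for that pair, with a ratio of means of 49.

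MMP10 (chr11:102770502-102780628, minus strand), or stromelysin 2, lies beside MMP1 and had the same order of line means at a lower level. WT held 4.53, 7.27 and 4.76 normalised counts, CRISPR Control 38.9, 71.2 and 37.4, KO 1 3.24, 2.25 and 3.53, and KO 2 14.1, 17.5 and 14.1. The change against WT was called in KO 2 (log2 fold change 1.33 ± 0.38, adjusted p = 0.00568) and in CRISPR Control (2.90 ± 0.38, adjusted p = 3.3e-06), while in KO 1 it was -0.69 ± 0.38 (adjusted p = 0.166). MMP1 and MMP10 both overlap WTAPP1 on the opposite strand. The strand setting of the counting is not given in the sources used here, so reads of WTAPP1 and of these genes cannot be told apart.

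MMP7 (chr11:102520508-102530750, minus strand) encodes matrilysin, a short MMP that cuts matrix and cell surface proteins, and it was high in KO 1 alone. The KO 1 libraries held 126, 113 and 99.8 normalised counts. WT held 9.05, 17.3 and 21, CRISPR Control 9.5, 17.8 and 8.79, and KO 2 17.4, 17.5 and 5.04. The lines other than KO 1 overlapped with one another. MMP7 rose in KO 1 by 2.83 ± 0.41 on the log2 scale against WT (adjusted p = 2.66e-05), and in KO 2 the log2 fold change was -0.32 ± 0.41 (adjusted p = 0.528). The difference between the KO lines was itself called (log2 fold change -3.15 ± 0.41, KO 2 minus KO 1, adjusted p = 7.04e-06).

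The cluster holds 9 MMP genes, in the order MMP7, MMP20, MMP27, MMP8, MMP10, MMP1, MMP3, MMP12 and MMP13. The 6 others were under the minimum. MMP27 had no read in any library, and no library held more than 4 reads of MMP20, 3 of MMP3, 5 of MMP12, 8 of MMP13 or 9 of MMP8. MMP8, the neutrophil collagenase, had reads in the WT libraries only, and MMP13 was at a mean of 4.07 normalised counts in WT and 0 in CRISPR Control. Where a library has no read, up to 3 reads could have been missed by counting error alone.

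**Figure D3:**
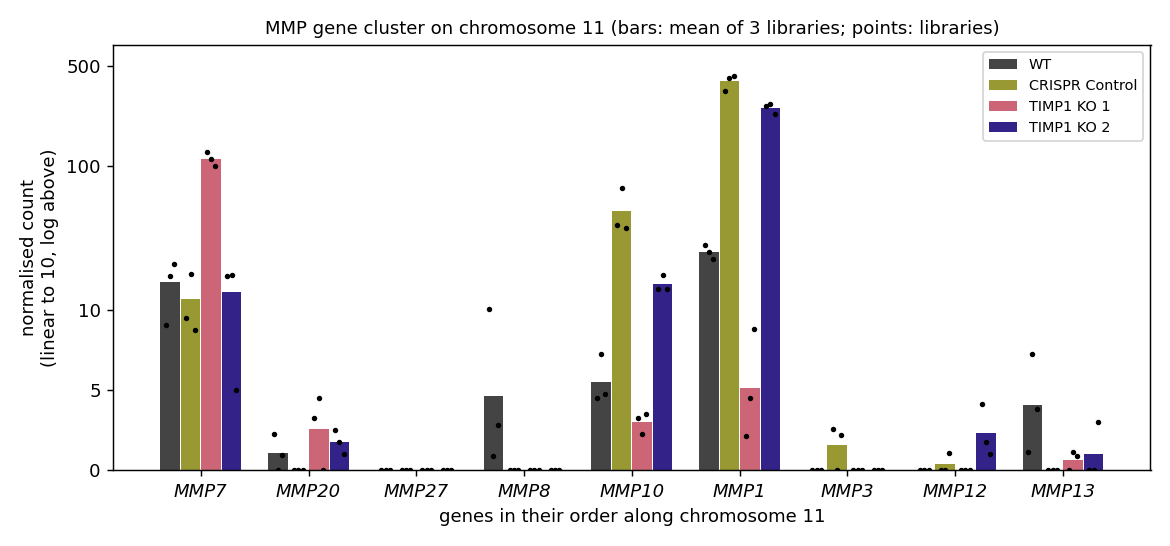
The 9 MMP genes of the chromosome 11 cluster in their order on the chromosome, with bars for the mean normalised count of each line and points for its 3 libraries, on an axis that starts at 0, is linear to 10 and logarithmic above. MMP7 is high in KO 1 at a mean of 113, whereas MMP10 and MMP1 are high in CRISPR Control and KO 2 and low in KO 1.

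Promoter sequences of RefSeq (GRCh38.p14, 250 bases before to 50 after each start) were searched on both strands. The motifs were TGANTCA, a form of the AP-1 site with the middle base left open, and TATAAA, the TATA box. The table held 36 of the 65 members. The 29 others, among them MMP1, MMP16 and MMP28, could not be searched, so nothing is known here of motifs in their promoters. TGANTCA was found in 7.71% of the 35116 promoters, and among the members in those of MMP7, MMP10, MMP20 and ADAMTS12. TATAAA was found in 11.5% of all promoters, and in MMP7, MMP8, MMP10, MMP20, MMP21, MMP26, ADAM21 and ADAMTS10. The 120 bases before the start are shown for MMP7 and MMP10, which are in the same cluster and moved differently, with both motifs in capitals. The last base shown lies directly before the start. MMP10 is at chr11:102780629-102780748 and MMP7 at chr11:102530748-102530867, both on the minus strand.
MMP10: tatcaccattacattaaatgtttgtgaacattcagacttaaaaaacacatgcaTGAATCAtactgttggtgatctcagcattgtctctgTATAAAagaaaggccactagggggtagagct
MMP7: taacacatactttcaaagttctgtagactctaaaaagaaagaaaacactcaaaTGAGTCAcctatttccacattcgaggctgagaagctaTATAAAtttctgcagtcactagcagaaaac
The TGANTCA match starts 67 bases before the start of transcription in both genes, and reads TGAATCA in MMP10 and TGAGTCA in MMP7. The TATA box starts 31 bases before it in MMP10 and 30 in MMP7. The stretches are AT-rich, with a GC content of 36.7% in MMP10 and 35% in MMP7. Both motifs thus lie at near-identical places in MMP7, which was high in KO 1, and in MMP10, which had its lowest mean there without a call against WT. A match of letters does not show that a factor was bound.

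MMP11, MMP19 and MMP28 complete the secreted MMPs that were tested. MMP28 (chr17:35756249-35795707, minus strand) encodes epilysin, which is known from epithelia. CRISPR Control libraries held 0.864, 2.37 and 2.2 normalised counts of it, or 5 reads over the 3 libraries. WT held 43, 25.5 and 40, KO 1 157, 154 and 175, and KO 2 196, 215 and 238. No 2 lines overlapped, and the deficient lines were highest. MMP28 rose against WT by 2.17 ± 0.26 on the log2 scale (SE, adjusted p = 2.29e-06) in KO 1, a ratio of means of 4.48, and by 2.58 ± 0.26 (adjusted p = 9.68e-08) in KO 2, a ratio of 5.99. It fell in CRISPR Control by 3.74 ± 0.26 (adjusted p = 6.04e-10). Relative to CRISPR Control, the scaled reads were 94.8 times as many in KO 1 (95% counting interval, Clopper-Pearson, 40.4 to 293) and 125 times as many in KO 2 (53.4 to 387). MMP28 shares its locus with C17orf50 on the opposite strand.

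MMP11, or stromelysin 3, which furin activates inside the cell, was 184 ± 11.4 (SD, n = 3) in WT, 88.4 ± 16.2 in CRISPR Control cells, 211 ± 12.4 in KO 1 and 109.8 ± 4.09 in KO 2. Individual libraries ran from 175 to 197 in WT, 71.2 to 103 in CRISPR Control cells, 201 to 225 in KO 1 and 105 to 113 in KO 2. MMP11 therefore fell against WT in KO 2 (log2 fold change -0.74, adjusted p = 0.000284) and in CRISPR Control (-1.07, adjusted p = 6.24e-06), and the change in KO 1 was 0.19 (adjusted p = 0.335). MMP19 was near the floor in 3 lines, with means of 3.74 in WT, 1.63 in CRISPR Control and 5.31 in KO 1, and held 31.5, 28.9 and 35.3 in KO 2. It rose in KO 2 by 3.23 ± 0.64 on the log2 scale against WT (adjusted p = 0.000324).

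The 6 membrane-type MMPs were all tested and made up most of the MMP level per kb. MMP14, MMP15, MMP16 and MMP24 span the membrane, and MMP17 and MMP25 are held by a lipid anchor. MMP14, which also activates the proform of MMP2, rose against WT in KO 1 (log2 fold change 0.29, adjusted p = 0.00518) and in CRISPR Control (0.63, adjusted p = 9.54e-07), and in KO 2 the change was 0.00 (adjusted p = 0.979). MMP15 was called against WT in KO 2 only, with a log2 fold change of -0.32 (adjusted p = 0.0115), and this call was lost with equal library totals (-0.23, adjusted p = 0.0556) and without WT replicate 3 (adjusted p = 0.0598) or KO 2 replicate 1 (adjusted p = 0.0549). The largest contrasts were in MMP16.

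MMP16 (chr8:88032011-88328025, minus strand) held 36.2, 46.4 and 32.4 normalised counts in WT and 274, 238 and 229.7 in CRISPR Control. KO 1 held 10.8, 15.8 and 9.72, and KO 2 held 329, 283 and 309.7. CRISPR Control and KO 2 lay above WT and KO 1 below it, as for MMP1. MMP16 fell in KO 1 by 1.60 ± 0.19 on the log2 scale (SE, adjusted p = 3.1e-06), and rose in KO 2 by 2.98 ± 0.19 (adjusted p = 2.89e-10) and in CRISPR Control by 2.67 ± 0.19 (adjusted p = 1.41e-09). The KO lines differed by 4.58 ± 0.19 (adjusted p = 2.03e-12), a ratio of means of 25.4. KO 2 and CRISPR Control, with a log2 fold change of 0.31 (adjusted p = 0.16), were not called apart. The sum of the fibroblast markers, mostly THY1, was also higher in CRISPR Control and KO 2 than in WT and KO 1. THY1 stood at means of 1898 and 1650 against 1008 and 1039. Single markers differed. Of the 3 tested, 2 were called higher and 1 lower in CRISPR Control against WT (27.2% and 26.3% of all genes). In KO 2 against WT 3 were higher (27.1%), and in KO 1 against WT 1 was higher and 1 lower (18% and 17.5%). The part of these markers in the pattern of MMP1, MMP10 and MMP16 was not tested.

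MMP17 ran from 1554 to 1662 normalised counts in the WT libraries, 1755 to 2641 in CRISPR Control cells, 947 to 1164 in KO 1 and 1223 to 1668 in KO 2. It fell against WT in KO 1 (log2 fold change -0.61, adjusted p = 0.000957), where no library overlapped with WT, and rose in CRISPR Control (0.40, adjusted p = 0.013). The rise in MMP17 was lost without CRISPR Control replicate 3 (0.25, adjusted p = 0.0925). In KO 2 the libraries overlapped with WT (-0.17, adjusted p = 0.262). MMP25 held 216, 184 and 207 in WT and 64.8, 48.6 and 80.2 in CRISPR Control, and its KO 1 libraries (288, 261 and 293) lay above WT while those of KO 2 (181, 204 and 208) overlapped with it. CRISPR Control was low for MMP25, with a log2 fold change of -1.66 against WT (adjusted p = 6.13e-08). MMP24 ran from 37.3 to 82.6 in WT, 61.7 to 98.9 in CRISPR Control cells, 103 to 125 in KO 1 and 67.6 to 94.7 in KO 2, and rose in KO 1 alone among the comparisons with WT (1.11, adjusted p = 0.00184). In KO 2 the change of MMP24 was 0.60 (adjusted p = 0.051) and in CRISPR Control 0.59 (adjusted p = 0.0553).

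Among the ADAMs with a catalytic motif, ADAM10, ADAM17, ADAM9 and ADAM15 moved by at most 0.52 on the log2 scale between any 2 lines. ADAM10, which starts the cleavage of Notch receptors and of cadherins, ranged from 3545 to 5042 normalised counts over the 12 libraries. Its largest log2 fold change between any pair of lines was 0.35, in KO 1 against CRISPR Control (adjusted p = 0.000734). ADAM10 was also called higher in KO 1 than in WT (0.23, adjusted p = 0.0278) and in KO 2 than in CRISPR Control (0.20, adjusted p = 0.0271). These 2 calls were lost with no minimum (adjusted p = 0.0604 and 0.0541). The call against WT was also lost without WT replicate 1 or any KO 1 library. Deficient lines were higher than competent lines by 0.22 (adjusted p = 0.00199), although libraries of these groups overlapped. In KO 2 against WT ADAM10 was not called (0.08, adjusted p = 0.372). ADAM17, which releases TNF and EGF receptor ligands, was called higher in CRISPR Control (0.49, adjusted p = 5.5e-05) and in KO 2 (0.21, adjusted p = 0.0349) than in WT. The call of ADAM17 in KO 2 was lost with no minimum (adjusted p = 0.062) and without WT replicate 2 or 3, or KO 2 replicate 1 or 3 (adjusted p from 0.0628 to 0.142). ADAM9 was called higher than WT in the same lines, by 0.50 and 0.30. ADAM15 was lower in CRISPR Control (-0.51, adjusted p = 0.000183). ADAM33, known as a gene of airway disease, was low throughout, at 22.7 ± 5.38 (SD, n = 3) in WT, 37.1 ± 10.2 in CRISPR Control cells, 12.3 ± 3.87 in KO 1 and 17.8 ± 5.11 in KO 2. It was not called against WT in any line. The deficient lines were lower than the competent lines by 0.94 on the log2 scale (adjusted p = 0.00174), although libraries of these groups overlapped.

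ADAM8 and ADAM19 stood apart from these. ADAM8 (chr10:133262420-133276868, minus strand) is a sheddase known from leukocytes and from carcinoma cells. WT held 55.5, 55.5 and 74.3 normalised counts, CRISPR Control 70, 87.8 and 81.3, KO 1 378, 351 and 366, and KO 2 607, 593 and 626. All 6 deficient libraries lay far above all competent libraries. ADAM8 rose against WT by 2.56 ± 0.14 on the log2 scale (SE, adjusted p = 3.87e-11) in KO 1, a ratio of means of 5.91, and by 3.29 ± 0.14 (adjusted p = 5.5e-13) in KO 2, a ratio of 9.86. CRISPR Control was also called against WT (0.37 ± 0.14, adjusted p = 0.0292), although their libraries overlapped. That call was lost with edgeR (adjusted p = 0.076), with DESeq2 (adjusted p = 0.0721) and without WT replicate 1 or 2, or CRISPR Control replicate 2 or 3 (adjusted p from 0.06 to 0.106). CD14, the leukocyte marker with reads, was also higher in the deficient lines, at 83 in KO 1 and 161 in KO 2 against 36.2 in WT and 36.5 in CRISPR Control. Of the 5 leukocyte markers, 3 exceeded 3 reads in a library, and their sum ran from 38.2 to 55.2 in WT, 38.5 to 40.6 in CRISPR Control cells, 76 to 92.9 in KO 1 and 160 to 172 in KO 2. CD3E stood at no more than 2 reads. The defining leukocyte gene PTPRC stood at 9 reads or fewer in every library, with line means of 5.17 in WT, 2.31 in CRISPR Control cells, 0.36 in KO 1 and 2.48 in KO 2.

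ADAM19 (chr5:157395534-157575775, minus strand), or meltrin beta, sheds neuregulin. Its WT libraries held 645, 625 and 695 normalised counts and those of CRISPR Control 624, 454 and 585. KO 1 held 2675, 2578 and 2617, and KO 2 1141, 1167 and 1133. The deficient libraries again lay above all competent ones, with KO 1 highest. ADAM19 rose against WT by 2.00 ± 0.10 on the log2 scale in KO 1 (SE, adjusted p = 1.09e-11), a ratio of means of 4, and by 0.81 ± 0.10 (adjusted p = 1.23e-06) in KO 2, a ratio of 1.75. CRISPR Control was lower than WT by 0.25 on the log2 scale (log2 fold change -0.25, adjusted p = 0.0365). This call was lost without CRISPR Control replicate 2 (-0.12, adjusted p = 0.235), without WT replicate 3 (-0.21, adjusted p = 0.136) or without WT replicate 1 (-0.26, adjusted p = 0.0617). ADAM19 overlaps CYFIP2 and NIPAL4 on the opposite strand.

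The 120 bases before the start of ADAM8 and ADAM19 are shown because both genes were higher in every deficient library. Neither held TGANTCA or TATAAA in the searched window, so no letters are in capitals. ADAM8 is at chr10:133276869-133276988 and ADAM19 at chr5:157575776-157575895, both on the minus strand of GRCh38.p14.
ADAM8: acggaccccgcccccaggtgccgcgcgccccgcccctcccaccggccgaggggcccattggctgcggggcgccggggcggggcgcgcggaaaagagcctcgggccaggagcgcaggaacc
ADAM19: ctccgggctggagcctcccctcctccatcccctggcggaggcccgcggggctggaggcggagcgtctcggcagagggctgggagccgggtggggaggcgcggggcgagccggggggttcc
Both are GC-rich, at 81.7% in ADAM8 and 80% in ADAM19, unlike the stretches of MMP10 and MMP7.

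ADAM11, ADAM22 and ADAM23 lack the catalytic motif and serve as adhesion proteins and, for ADAM22 and ADAM23, as receptors of the secreted LGI proteins. ADAM11 (chr17:44758988-44781846, plus strand) held 549, 501 and 505 normalised counts in WT and 641, 552 and 642 in CRISPR Control. KO 1 held 300.3, 289 and 352, and KO 2 224, 219 and 249. Both KO lines lay below both competent lines. ADAM11 fell against WT by 0.73 ± 0.11 on the log2 scale in KO 1 (SE, adjusted p = 3.24e-05) and by 1.17 ± 0.11 in KO 2 (adjusted p = 3.51e-08), and the change in CRISPR Control was 0.24 ± 0.11 (adjusted p = 0.0728).

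ADAM22 differed between all pairs of lines. WT held 654, 645 and 738 normalised counts, CRISPR Control 268, 231 and 264, KO 1 829, 900.1 and 852, and KO 2 562, 461 and 491. Against WT the log2 fold change was 0.34 in KO 1 (adjusted p = 0.0121), -0.43 in KO 2 (adjusted p = 0.00138) and -1.41 in CRISPR Control (adjusted p = 1e-09). The call in KO 1 was lost without WT replicate 2 (0.31, adjusted p = 0.0505) and without KO 1 replicate 2 (0.31, adjusted p = 0.056). ADAM23 was lower, with 31.7, 30 and 24.8 in WT, 63.1, 71.2 and 71.4 in CRISPR Control cells, 13, 14.6 and 15.9 in KO 1, and 34.8, 45.6 and 39.3 in KO 2. It fell in KO 1 (-0.94, adjusted p = 0.00308) and rose in CRISPR Control (1.23, adjusted p = 0.000166), and in KO 2 the change was 0.46 (adjusted p = 0.096).

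All 3 proteoglycan-cleaving ADAMTS genes that were tested were called higher in KO 2 than in KO 1, as were 18.1% of all genes. ADAMTS15 (chr11:130448645-130476645, plus strand) was the most abundant ADAMTS gene per kb in WT. WT held 539, 557 and 702 normalised counts, CRISPR Control 240.1, 209.9 and 263, KO 1 127, 156 and 120.1, and KO 2 1149, 1245 and 1250.1. No 2 lines overlapped. ADAMTS15 fell against WT in KO 1 by 2.15 ± 0.13 on the log2 scale (SE, adjusted p = 1.64e-10) and in CRISPR Control by 1.33 ± 0.13 (adjusted p = 5.85e-08), and rose in KO 2 by 1.03 ± 0.13 (adjusted p = 1.46e-06). The KO lines differed by 3.17 ± 0.13 (adjusted p = 8.29e-13), a ratio of means of 9.02.

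ADAMTS1 (chr21:26835755-26845409, minus strand), an enzyme that cuts versican and aggrecan, was high in KO 2. KO 2 held 159, 186 and 147 normalised counts, CRISPR Control 19.9, 19 and 26.4, WT 5.66, 8.18 and 8.57, and KO 1 5.4, 5.63 and 6.18. WT and KO 1 overlapped, with a log2 fold change of -0.31 (adjusted p = 0.413). ADAMTS1 rose against WT in KO 2 by 4.30 ± 0.28 (SE, adjusted p = 2.74e-10), a ratio of means of 22, and in CRISPR Control by 1.43 ± 0.28 (adjusted p = 0.000291).

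ADAMTS4 (chr1:161184302-161199054, minus strand), or aggrecanase 1, went the other way and was low in both KO lines. WT held 53.2, 23.6 and 38.1 normalised counts and CRISPR Control 25, 28.5 and 29.7. KO 1 held 0, 1.13 and 1.77, which was 3 reads in all, and KO 2 held 5.8, 3.51 and 7.06. The competent lines overlapped, and all deficient libraries lay below them. The scaled reads in WT were 36.6 times those in KO 1 (95% counting interval 12.2 to 180). Fitted against WT, the log2 fold change came to -4.37 ± 0.45 in KO 1 (SE, adjusted p = 3.53e-07) and -2.57 ± 0.45 in KO 2 (adjusted p = 8.45e-05), and in CRISPR Control it was -0.38 (adjusted p = 0.495). The call of ADAMTS4 between the KO lines was lost with a pseudocount of 10 (adjusted p = 0.0864) and with quantile normalization (adjusted p = 0.222).

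ADAMTS2 (chr5:179110853-179345461, minus strand) removes the amino-terminal propeptide of procollagens. CRISPR Control held 88.1, 45.1 and 52.7 normalised counts, against 6.79, 10 and 4.76 in WT. KO 1 held 0, 0 and 1.77, and KO 2 held 3.31, 3.51 and 4.04. CRISPR Control was high, and the deficient lines lay below WT without overlap. Scaled reads in WT were 10.7 times those in KO 1 (95% counting interval 2.63 to 93.7), and the fall in KO 1 was called (adjusted p = 0.000706). In KO 2 the log2 fold change was -0.78 ± 0.50 (adjusted p = 0.198). In CRISPR Control it was 2.93 ± 0.50 (adjusted p = 7.63e-05).

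ADAMTS6 and ADAMTS10 are close relatives that act on the fibrillin microfibrils of the matrix. ADAMTS6 (chr5:65148738-65481920, minus strand) was a rare transcript, with 4.53, 1.82 and 0.953 normalised counts in WT and 8.64, 2.37 and 5.49 in CRISPR Control. KO 1 held 17.3, 11.3 and 8.83, and KO 2 16.6, 23.7 and 24.2. The lowest deficient library, at 8.83, was just above the highest competent one, at 8.64. ADAMTS6 rose against WT by 2.06 ± 0.50 on the log2 scale in KO 1 (SE, adjusted p = 0.00338) and by 2.83 ± 0.50 in KO 2 (adjusted p = 9.98e-05), and in CRISPR Control the change was 0.93 (adjusted p = 0.126). Its mean over the 12 libraries was 10.5, close to the minimum of 10, and it dropped out of the test without KO 1 replicate 1 or any KO 2 library. ADAMTS10 held 143, 195 and 156 in WT, 57, 68.8 and 57.1 in CRISPR Control cells, 260.4, 208 and 202 in KO 1, and 187, 229 and 199 in KO 2. CRISPR Control was the line that stood apart, at a log2 fold change of -1.41 against WT (adjusted p = 4.25e-07).

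ADAMTS7 (chr15:78759206-78811464, minus strand), which cuts cartilage oligomeric matrix protein, held 103, 79.1 and 108 normalised counts in WT and 111, 86.6 and 96.7 in CRISPR Control. KO 1 held 46.5, 38.3 and 39.8, and KO 2 43.1, 59.6 and 50.4. The competent lines overlapped with each other and lay above both KO lines. ADAMTS7 fell against WT by 1.19 ± 0.19 on the log2 scale in KO 1 (SE, adjusted p = 8.21e-05) and by 0.91 ± 0.19 in KO 2 (adjusted p = 0.000589), with a change of 0.03 in CRISPR Control (adjusted p = 0.911). ADAMTS7 shares its locus with MORF4L1 on the opposite strand.

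ADAMTS13, which cuts von Willebrand factor, held 166, 150.0 and 147 normalised counts in WT and 57, 45.1 and 44 in CRISPR Control. KO 1 held 217, 218 and 252, and KO 2 239, 309.5 and 271. No line overlapped with another except the KO lines. It rose against WT in KO 1 (log2 fold change 0.57, adjusted p = 0.00528) and in KO 2 (0.82, adjusted p = 0.000114), and fell in CRISPR Control (-1.65, adjusted p = 2.24e-08). ADAMTS16 was present mainly in CRISPR Control, at 78.6, 60.5 and 78, against 5.66, 6.36 and 3.81 in WT, 1.08, 2.25 and 3.53 in KO 1, and 17.4, 15.8 and 13.1 in KO 2. It rose in CRISPR Control (3.56, adjusted p = 2.38e-07) and in KO 2 (1.40, adjusted p = 0.00398). The change in KO 1, -0.98, passed narrowly (adjusted p = 0.0493) and was lost with edgeR (adjusted p = 0.144), with DESeq2 (adjusted p = 0.198) and without any of the 12 libraries except WT replicate 3 and KO 1 replicate 3.

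**Figure D4:**
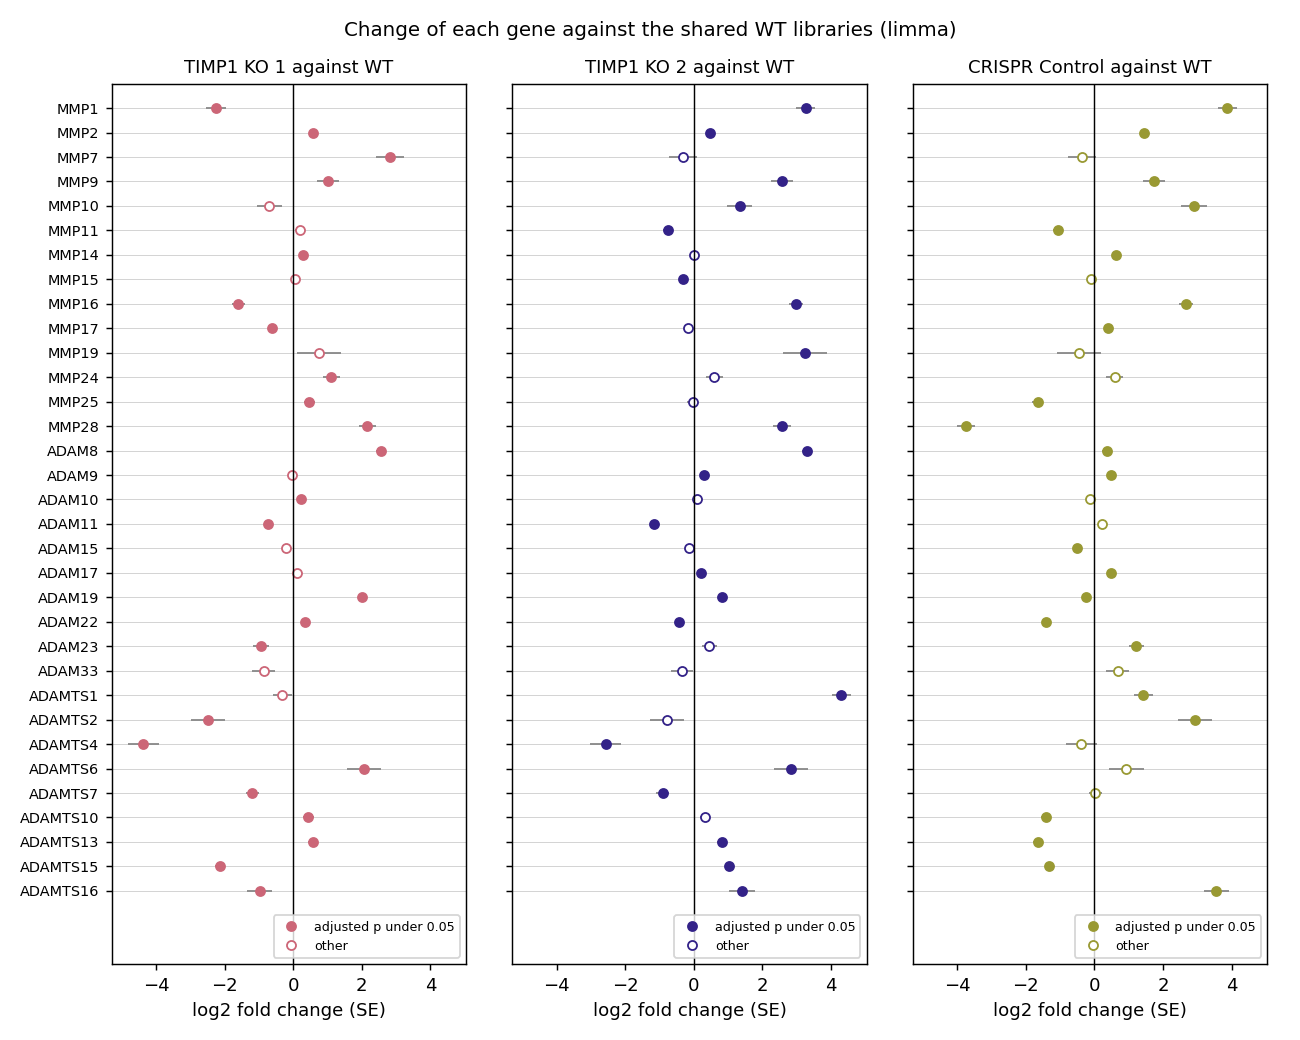
Log2 fold change (points) and its SE (bars) of the 33 tested genes in TIMP1 KO 1, TIMP1 KO 2 and CRISPR Control, each against the same 3 WT libraries, with filled points for an adjusted p under 0.05 (limma). ADAM8, ADAM19 and MMP28 are higher in both KO lines and ADAMTS4, ADAM11 and ADAMTS7 lower, while MMP1 and MMP16 are lower in KO 1 and higher in KO 2 and in CRISPR Control.

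The study took a gene as TIMP1-dependent where KO 1 and KO 2 each differed from WT and CRISPR Control did not. Of the 33 genes, 10 were called against WT in KO 1 and KO 2 alike, with a shared direction. They were higher for MMP2, MMP9, MMP28, ADAM8, ADAM19, ADAMTS6 and ADAMTS13, and lower for ADAM11, ADAMTS4 and ADAMTS7. In 6 of the 10, CRISPR Control was called as well, which left 4 genes, 3 of them lower (ADAM11, ADAMTS4 and ADAMTS7, against 5.18% of all genes) and 1 higher (ADAMTS6, against 5%). ADAMTS6 passed the minimum only through the deficient lines, in which it was high, so its place in this count is a description. ADAM8 and ADAM19 were left out through the calls in CRISPR Control described above. The study used DESeq2, whereas limma and a condition on direction were used here. With DESeq2 on the recovered reads the number was again 4, but 2 were higher. The call of ADAM8 in CRISPR Control was lost there (adjusted p = 0.0721), so which genes are counted depends on the test. The share of the 33 genes, 12.1%, was near the 10.2% of all genes tested. The number ran from 3 to 6 when a library was left out. It was 3 without KO 1 replicate 1, KO 2 replicate 1 or KO 2 replicate 2, where ADAMTS6 was not tested. Without KO 2 replicate 3 ADAMTS6 was not tested either, and the number was 4. It was 6 without CRISPR Control replicate 3.

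Among the 4, the promoter table held ADAMTS6 and ADAMTS7, and the 120 bases before their starts are shown with no letters in capitals, since neither window held TGANTCA or TATAAA. ADAMTS6 is at chr5:65481921-65482040 and ADAMTS7 at chr15:78811465-78811584, both on the minus strand of GRCh38.p14.
ADAMTS6: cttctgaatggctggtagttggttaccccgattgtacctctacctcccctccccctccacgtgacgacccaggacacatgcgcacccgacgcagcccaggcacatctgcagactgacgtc
ADAMTS7: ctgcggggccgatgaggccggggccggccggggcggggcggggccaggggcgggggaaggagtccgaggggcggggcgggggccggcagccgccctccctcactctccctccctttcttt
GC content was 60.8% in ADAMTS6, which was higher in the deficient lines, and 80.8% in ADAMTS7, which was lower.

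Opposite changes in the KO lines were found for 5 of the 33 genes, MMP1, MMP16, ADAM22, ADAMTS15 and ADAMTS16, against 1.69% of all genes tested. These were called against WT in opposite directions and called between the KO lines. MMP1, MMP16, ADAMTS15 and ADAMTS16 were higher in KO 2 and lower in KO 1, and ADAM22 was the reverse. For ADAMTS16 the call in KO 1 was the narrow one given above. ADAMTS16 also passed the minimum only through the lines in which it was high, so its place in this count is a description.

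Deficient and competent lines were also compared as groups of 6 libraries. Of the 33 genes, 28 were called (65.9% of all genes), 15 higher and 13 lower in the deficient lines (32.9% and 33% of all genes), and 17 with an absolute log2 fold change of at least 1 (14.5% of all genes). For 9 genes, or 27.3% of the 33, the 6 deficient libraries lay on one side of the 6 competent ones, which was near the 24.7% of all genes. ADAM8, ADAM19, ADAMTS6, ADAMTS13 and MMP28 were the higher ones, and ADAM11, ADAMTS2, ADAMTS4 and ADAMTS7 the lower ones. Of the 9, the largest log2 fold changes were 4.24 for MMP28, 2.74 for ADAM8, -3.28 for ADAMTS4 and -3.10 for ADAMTS2. The pooled contrast hides differences within a group where the 2 lines of that group lie apart, as for MMP1, whose KO means were 5.17 and 253. The competent lines lay apart for MMP28 and ADAMTS2, with means of 36.2 and 7.18 in WT and of 1.81 and 62 in CRISPR Control. The ADAMTS2 change in KO 2 against WT (-0.78) was not called. ADAMTS2 and ADAMTS6 also passed the minimum only through the lines in which they were high.

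**Figure D5:**
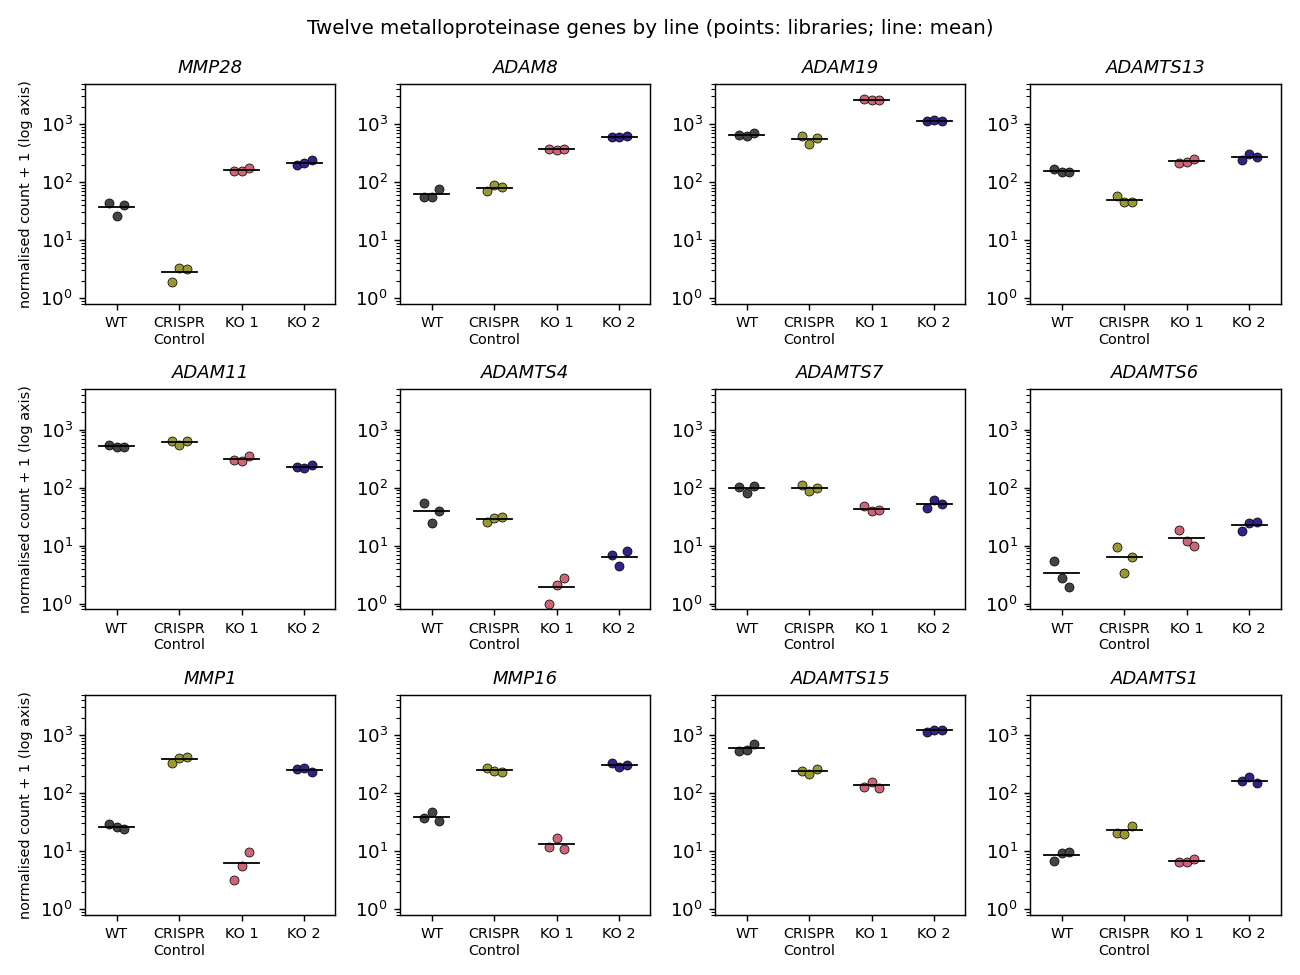
Normalised count + 1 on a log axis in each library (points) and the mean of each line (horizontal strokes) for 12 genes, chosen after their values were seen. The top row shows genes higher in the deficient lines, the middle row the 4 genes called in both KO lines and not in CRISPR Control, and the bottom row genes in which the KO lines lie far apart, such as MMP1 with 2.16 to 8.83 in KO 1 and 229 to 269 in KO 2.

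Of the 32 genes under the minimum, 9 had no read in any library, namely MMP26, MMP27, ADAM2, ADAM5, ADAM6, ADAM7, ADAM18, ADAM29 and ADAM30. Several of these are known from testis or sperm. ADAM5 and ADAM6 are annotated as pseudogenes, as is MMP23A among the other genes under the minimum. At this depth, 0 reads allow up to 3 reads in a library. In all, 15 genes stayed at 3 reads or fewer in every library, among them MMP3, ADAM20, ADAM28, ADAMTS18, ADAMTS19 and ADAMTS20. ADAMTS17, ADAMTS14, ADAM32, ADAMTS8, MMP23A and ADAM21 were the most abundant of the rest, with means of 9.04, 7.22, 5.37, 5.14, 4.73 and 4.22 normalised counts over the 12 libraries. ADAMTS14, a procollagen-processing enzyme like ADAMTS2, had means of 10.2 in WT and 12.2 in CRISPR Control, and of 3.43 in KO 1 and 3.02 in KO 2. ADAMTS9 had a mean of 6.27 in CRISPR Control and of at most 1.43 elsewhere. ADAM12, MMP21, ADAMTS3, MMP23B, MMP13, MMP20, MMP8, ADAMTS12, MMP12 and ADAMTS5 had means between 0.481 and 3.15 over the 12 libraries. MMP23A and MMP23B are near-identical copies, so their reads may have been split or lost in the counting.

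Genes that act on metalloproteinases were compared between the deficient and competent lines from lists written for this purpose. Of all genes tested, 32.9% were called higher and 33% lower in that contrast, and the counts of each list stand beside these shares. Of 7 inhibitors, 4 were tested, and 1 was higher and 3 were lower in the deficient lines, with a median log2 fold change of -0.59 against 0.00 over all genes. TIMP1 fell by 1.18 on the log2 scale (adjusted p = 6.03e-12). RECK, a membrane-anchored inhibitor of MMPs, rose by 0.92, with means of 1215 in KO 1 and 1049 in KO 2 and of 611 and 583 in WT and CRISPR Control, and in CRISPR Control against WT it changed by -0.07 (adjusted p = 0.564). TIMP2 and TFPI2 were the others that fell. TIMP3, TIMP4 and A2M were under the minimum.

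Of 14 partners of maturation and trafficking, 13 were tested. The 14 include furin and the iRhom and tetraspanin proteins that escort ADAM17 and ADAM10. In the deficient lines 6 were higher and 4 lower (32.9% and 33% of all genes), with a median of 0.14. PCSK6, a convertase, changed by 0.87, and TSPAN5, an ADAM10 partner, by 0.84. Of 15 related metzincins and ADAMTS-like proteins, 9 were tested, with 6 higher and 1 lower (32.9% and 33% of all genes) and a median of 0.78. Against WT, however, 6 were lower and 1 higher in CRISPR Control (26.3% and 27.2% of all genes), with a median of -0.86. In KO 1 against WT 3 were higher and 1 lower (18% and 17.5%), with a median of 0.26. In KO 2 against WT 6 were higher and 2 lower (27.1% and 27.9%), with a median of 0.43. In the deficient against the competent lines PAPPA, which cuts insulin-like growth factor binding proteins, rose by 2.42 and TLL1, a tolloid protease, by 1.93. The latter was high in KO 2, at a mean of 198 against 28 in WT, 12.6 in CRISPR Control and 27.8 in KO 1.

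Of 31 membrane proteins that ADAM10 or ADAM17 sheds, 28 were tested. In the deficient lines 13 were higher and 11 lower (32.9% and 33% of all genes), with a median of 0.02. The largest changes were in EREG and AREG, which encode EGF receptor ligands. EREG had means of 256 normalised counts in WT, 708 in CRISPR Control cells, 0 in KO 1 and 9.33 in KO 2, and AREG 109.6, 93.9, 0.294 and 2.47. Of the proteoglycans and COMP cut by ADAMTS enzymes, 4 of 5 were tested. In the deficient lines 0 were higher and 2 lower (32.9% and 33% of all genes), with a median of -0.38. VCAN, or versican, had means of 24.6 in WT, 44.5 in CRISPR Control cells, 1.32 in KO 1 and 5.86 in KO 2, and COMP changed by -0.41.

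All 15 AP-1 and ETS-family factors, which are known to bind metalloproteinase promoters, were tested. In the deficient lines 11 were higher and 3 lower (32.9% and 33% of all genes), with a median of 0.76. ETV1 rose by 2.47 and FOSB by 2.43. Against WT, however, 9 of the 15 were lower in CRISPR Control cells and 3 were higher there (26.3% and 27.2% of all genes), and the median was -0.86. In KO 1 against WT 9 were higher and 2 lower (18% and 17.5% of all genes), with a median of 0.26. In KO 2 against WT 7 were higher and 2 lower (27.1% and 27.9%), with a median of 0.16.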

How the data were processed

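Total RNA of MIA PaCa-2 lines was sequenced as read pairs. Per the labels and the methods of the study, the authors trimmed reads with cutadapt, mapped them with STAR to GRCh38, obtained gene counts with featureCounts and scaled each library with the size factor of DESeq2. The deposited signal is thus a scaled read count, with replicates kept apart. The annotation release and the strand setting are not given in the sources used here. The scaling would remove a change shared by most genes. Values were whole multiples of a step in each library, and 100% of positive values gave whole reads within 0.01 reads. Depth was 26908701 to 36093563 reads in genes, and floors and intervals cover counting error only. The 4 columns of line means and 1 row without a gene identifier were not used.

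Groups and replicate numbers came from the sample titles. Genes with a mean of at least 10 over the 12 libraries (15987, with 99.9% of reads) were tested with limma 3.58.1 (R 4.3.3), applied to log2(normalised count + 1) with 4 line means, eBayes with a trend, two-sided tests and Benjamini-Hochberg adjustment over all genes tested. Fold changes are on that scale and are too small for low genes. The script was tested on simulated data. Coordinates, exon lengths and overlaps are from GENCODE 44 (GRCh38), which need not be the authors' release. All 65 members matched, 64 with the version. Replicates correlated across genes with r from 0.990 to 0.993, and no pair agreed within sampling noise. The labels name no batch. Alternatives were other pseudocounts, filters and scalings, edgeR 4.0.16 and DESeq2 1.42.0 on the recovered reads, a replicate block, a minimum change and leaving out each library.

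The members, gene lists, tests and the rule for named genes were chosen with earlier results of these data known. Values per library are given for the 21 members with a mean of at least 50 in a line that were called with an absolute log2 fold change of at least 1 between any pair of lines. From each list of related genes, TIMP1 and the pair with the largest called changes between deficient and competent lines are named. Values of the 12 other tested members and of low members, CDH1, CD14 and PTPRC, and the promoters of MMP7, MMP10, ADAM8 and ADAM19 were chosen after their values were seen. Sequences of the catalytic sites were not used here.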

Additional observations from a re-analysis of the deposited data

Results flagged for a closer look

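For 5 genes the KO lines moved in opposite directions against WT and the difference between KO 2 and KO 1 was itself called (limma, adjusted over all genes tested). The log2 fold change of KO 2 minus KO 1 was 5.51 for MMP1, 4.58 for MMP16, 3.17 for ADAMTS15, 2.38 for ADAMTS16 and -0.77 for ADAM22, and for each of the 5 all 3 libraries of one KO line lay above all 3 of the other. CRISPR Control lay on the side of KO 2 for MMP1, MMP16, ADAMTS16 and ADAM22, at log2 fold changes against WT of 3.88, 2.67, 3.56 and -1.41, and on the side of KO 1 for ADAMTS15, at -1.33. The change of ADAMTS16 in KO 1 against WT (-0.98, adjusted p = 0.0493) passed narrowly, and ADAMTS16 passed the minimum only through the lines in which it was high. That of ADAM22 in KO 1 (0.34, adjusted p = 0.0121) was lost without WT replicate 2 (adjusted p = 0.0505) or KO 1 replicate 2 (adjusted p = 0.056). Of all genes tested, 1.69% met the same condition, and why these genes did so was not tested.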

How the results depend on the processing

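No call of a member in any comparison changed direction under any alternative. Apart from the minimum change, 3615 of 3714 repeated calls were kept and 99 were lost, 61 of them when a library was left out. With a minimum mean of 50, which left 22 members tested, 17 members were called in KO 2 against CRISPR Control, 13 in KO 2 against KO 1 and 17 in the deficient against the competent lines. With a minimum absolute log2 fold change of 1, 13 were called in KO 1 and 13 in KO 2 against WT, 16 in KO 2 against CRISPR Control, 13 between the KO lines and 17 between deficient and competent lines. Both settings lower the counts by construction. Without 1 library at a time, the number called ran from 18 to 24 in KO 1 and from 18 to 23 in KO 2 against WT, from 21 to 24 in CRISPR Control against WT, from 28 to 31 in KO 1 and from 23 to 28 in KO 2 against CRISPR Control, from 20 to 22 between the KO lines, from 25 to 28 between deficient and competent lines, and from 3 to 6 for genes called in both KO lines and not in CRISPR Control. Where a line kept 2 libraries, the spread was taken from all lines.

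Replicate numbers did not pair the libraries. Of 18 pairs with the same number in different lines, 2 had deviations correlated above 0.1, and 4 of the 12 libraries correlated best with their own number. With the number as a replicate block, 23 members were called in KO 1 against WT, 22 in KO 2 against WT, 23 in CRISPR Control against WT and 4 in both KO lines and not in CRISPR Control.

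Equal library totals moved the median of all genes by up to 0.11 on the log2 scale, in KO 2 against CRISPR Control. Among the calls lost most often were the fall of ADAMTS16 in KO 1, the change of MMP11 between deficient and competent lines and those of ADAM8 and ADAM19 in CRISPR Control. The changes of MMP25 and ADAMTS10 in KO 1 against WT (adjusted p = 0.0252 and 0.0327) were lost with quantile normalization (0.0883 and 0.0967) and without WT replicate 3 (0.0533 and 0.0966) or KO 1 replicate 1 (0.0739 and 0.162), and that of MMP11 between deficient and competent lines (0.26, adjusted p = 0.0346) with quantile normalization (0.06, adjusted p = 0.61), with no minimum (adjusted p = 0.0546) and without any 1 of 7 of the 12 libraries (adjusted p from 0.0502 to 0.0921). Depth limits the genes that rested on few reads in at least 1 line, among them MMP10, MMP19, MMP28, ADAMTS2, ADAMTS4, ADAMTS6 and ADAMTS16.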
